A study of Bos taurus with 12 samples.

Results

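LTBP2 and a group of TGF-beta family genes were followed in intramuscular and subcutaneous fat of 2 cattle breeds, Japanese Black (JB) and Holstein (HS). The group consisted of the matrix protein gene LTBP2, the ligand genes TGFB1, TGFB2, TGFB3, INHBA, BMP2 and BMP4, the ligand-binding protein gene FST and the activator gene THBS1. All probe sets annotated with exactly 1 of these gene symbols were taken, which gave 15 of the 24128 probe sets on the array, standing for 9 genes. THBS1 had 6 probe sets, LTBP2 had 2 and each of the other genes had 1. LTBP2 was selected on its signal in the comparison of breeds within intramuscular fat, and THBS1 came up in the same comparison. That contrast is therefore given for the members as a description with no test.

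JB cattle are bred for beef with strong marbling and HS cattle for milk. Steers of both breeds received energy-rich feeding. Fat lying inside the muscle (intramuscular fat, IMF) and fat beneath the skin (subcutaneous fat, SCF) were isolated from each. The 4 groups were JB IMF, HS IMF, JB SCF and HS SCF, with 3 samples each. IMF samples carry the numbers 1 to 3 and SCF samples the numbers 4 to 6, 12 samples in all. The number of arrays limits the precision. Whether samples of 1 group are from separate animals is not stated by the labels. The p-values therefore measure only how far these samples spread, which may be technical. The labels also do not say whether IMF and SCF samples of a breed come from the same animals. The depot tests treat them as independent. In whole tissue, fewer cells of a type and less RNA per cell cannot be told apart.

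Ligands of the TGF-beta family are secreted proteins that bind pairs of receptor kinases and act through SMAD proteins. TGF-beta itself leaves the cell as a latent complex, which latent TGF-beta binding proteins (LTBPs) anchor to fibrillin microfibrils of the matrix until it is activated. LTBP2 shares the domain structure of this family and lies on microfibrils, but unlike its relatives it is not known to bind latent TGF-beta. In cultured cells of mouse and human origin, TGF-beta restrains the differentiation of adipocytes, activin A keeps human adipocyte progenitors dividing, and BMP4 favours commitment to the adipocyte lineage.

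The deposited signals were linear intensities, one number per probe set and array with no unit beyond brightness. Differences are given on a log2 scale after adding 16 to each signal and quantile normalization. A difference of 1 is thus close to a doubling, and stands for more than that where the signal is near 16. The 30% of probe sets with the lowest mean over the 12 samples were left out as dim, and all 15 member probe sets passed this filter. Overlap between groups is judged on deposited signals, with the count on normalized values beside it where members are counted. Their mean levels ranged from percentile 16.7 (BMP4) to percentile 98.7 (the brightest THBS1 probe set) among the 16811 probe sets that passed. Tests were made with limma across the 16811 remaining probe sets, and passing means a p below 0.05 after Benjamini-Hochberg adjustment. A standard error (SE) follows each log2 difference.

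HS IMF 3 stood apart, with a median signal of 58.8 where the other arrays had 77.6 to 88.3. Its mean correlation with the other HS IMF arrays was 0.805, the lowest of all arrays, and HS SCF 4 was the lowest of the SCF arrays with 0.875. This agreement within groups split by breed, with 0.944 to 0.962 for the JB arrays and 0.805 to 0.915 for the HS arrays. Each SE pools the spread of all groups, and the part of this split in the breed differences was not tested. The ratio of the 3' to the 5' GAPDH control signal, which grows as RNA degrades, was 1.19 to 2.40 in IMF and 1.87 to 2.34 in SCF except for 4.06 in HS SCF 5. Its part in the differences between depots was not tested. Among the members, HS IMF 3 had the lowest deposited signal of the 6 IMF samples on 11 of the 15 probe sets, and HS IMF 2 had the highest on 7. The summed signal of the 7 measured adipocyte markers ranged from 18735 to 44700 in IMF, against 42615 to 59201 in SCF, and no marker of this list was at 0 in any sample. The 10 measured markers of skeletal muscle fibres summed to 50066 to 108553 in IMF and to 4337 to 17333 in SCF. In JB SCF 4, with a sum of 8212, MYH7 and CKM gave 4407.83 and 3609.15, and both overlapped between the depots. ACTA1 was 6.95 to 57.19 in SCF except for 1461.79 in JB SCF 6 and 7292.05 in HS SCF 5. The 9 smooth muscle and pericyte markers summed to 12372 to 51970 in IMF and to 7237 to 10890 in SCF, and the 7 macrophage markers to 1469 to 4680 in IMF and 7783 to 25302 in SCF. The 8 fibroblast markers summed to 1663 to 6864 in IMF and to 6653 to 10742 in SCF, the 8 endothelial markers to 4929 to 12248 and 7815 to 13728, and the 5 erythroid markers to 347 to 823 and 458 to 958. The part of these cell types in the differences between depots below was not tested.

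LTBP2 had higher signals in JB than in HS samples in both depots. On probe set Bt.5011.1.S1_at its signal was 287.81, 314.49 and 457.19 in JB IMF and 63.53, 77.88 and 25.23 in HS IMF. In SCF the same probe set had 198.98, 253.06 and 176.06 in JB and 75.07, 80.47 and 59.15 in HS. The lowest of the 6 JB samples was thus above the highest of the 6 HS samples, whatever the depot. This includes the IMF samples by which the gene was chosen and has no share over all probe sets beside it, so it only describes the signals. The mean signals were 353 ± 91.1 in JB IMF, 55.5 ± 27.2 in HS IMF, 209 ± 39.5 in JB SCF and 71.6 ± 11.1 in HS SCF (SD, n = 3 each). The order of the group means was JB IMF, JB SCF, HS SCF and HS IMF, and HS SCF and HS IMF differed by less than their spread.

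The other LTBP2 probe set, Bt.5011.1.S2_at, had the same breed difference with a smaller size. Its signal was 458.71, 246.2 and 345.09 in JB IMF and 210.11, 126.82 and 54.85 in HS IMF. In SCF it was 150.57, 246.69 and 144.83 in JB and 61.19, 113.31 and 133.96 in HS. Within each depot the breeds did not overlap, although the lowest JB SCF sample was below the highest HS IMF sample. Both probe sets followed each other over the 12 samples with a Pearson correlation of 0.77, a description in which the breed difference is shared.

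In IMF the JB minus HS difference of LTBP2 was 2.25 ± 0.30 on Bt.5011.1.S1_at, a 4.77-fold difference, and 1.18 ± 0.36 on Bt.5011.1.S2_at, a 2.27-fold difference. These are the values by which the gene was chosen. In SCF, which was not used to choose it, the differences were 1.24 ± 0.30 (2.37-fold, 95% interval 0.59 to 1.90) and 0.65 ± 0.36 (interval -0.14 to 1.44). The SCF differences did not pass over all probe sets tested, with adjusted p = 0.749 for Bt.5011.1.S1_at (unadjusted p = 0.00129) and 1.00 for Bt.5011.1.S2_at in limma. All 3 JB samples lay above all 3 HS samples on both. In this comparison 1 of 16811 probe sets passed, or 0.00595%, and 12.2% of all probe sets had groups that did not overlap.

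LTBP2 did not pass between depots. The IMF minus SCF difference over both breeds was 0.24 ± 0.21 on Bt.5011.1.S1_at (adjusted p = 0.510) and 0.65 ± 0.26 on Bt.5011.1.S2_at (adjusted p = 0.125, limma). Without HS IMF 3 the value of Bt.5011.1.S2_at was 0.84, with adjusted p = 0.0448. Within JB the depot differences were 0.74 ± 0.30 and 0.92 ± 0.36, and within HS they were -0.27 ± 0.30 and 0.38 ± 0.36, with the probe sets in the same order. Whether the depot difference differed between the breeds was not tested.

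**Figure D1:**
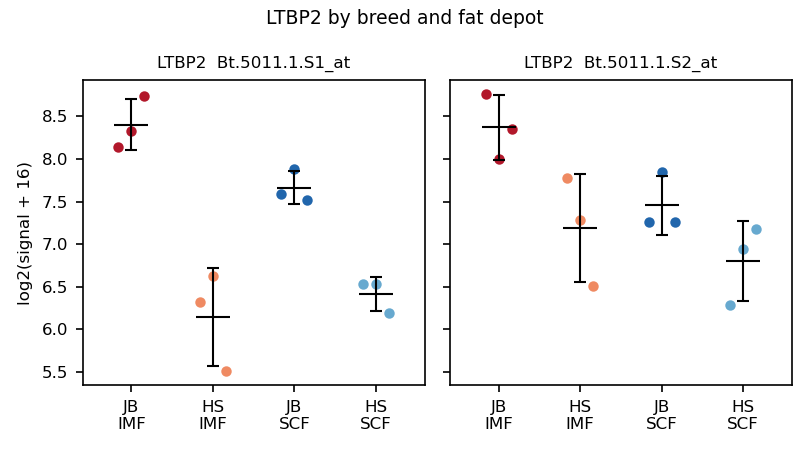
Signal of the LTBP2 probe sets in the 12 samples. The vertical axis is log2(signal + 16) after quantile normalization, points are samples, and bars give the group mean and SD of 3 samples. All JB points of Bt.5011.1.S1_at lie above all HS points, and on Bt.5011.1.S2_at the breeds do not overlap within a depot. LTBP2 was chosen by its IMF samples.

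Over the 12 samples the probe sets most like Bt.5011.1.S1_at of LTBP2 in pattern were those of GNB4 (Pearson r = 0.92), NDUFS3 (0.88), ASCC3 (0.85), PJA2 (0.84), H2AZ2 (0.84) and FAM120B (0.84). The most opposite were METAP1D (r = -0.94), CCL25 (-0.93) and CCL3 (-0.89). GNB4, a G protein beta subunit gene, had signals of 402, 678.65 and 687.14 in JB IMF and 67.57, 157.3 and 12.89 in HS IMF, and 481.06, 638.58 and 686.31 in JB SCF and 194.61, 143.97 and 95.08 in HS SCF. The 6 JB samples of GNB4 all lay above the 6 HS samples. GNB4 was picked for its likeness to an LTBP2 probe set with the same separation, so this is not separate evidence. These correlations describe a ranking of all named probe sets over samples that share the breed groups, and carry no test.

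Of the TGF-beta ligand genes, TGFB3 was higher in IMF than in SCF, while TGFB1 and TGFB2 did not pass. TGFB3 encodes one of the 3 mammalian TGF-beta isoforms. Its signal was 708.41, 468.93 and 1466.32 in JB IMF and 465.39, 138.9 and 186.69 in HS IMF. In SCF it was 50.54, 88.16 and 111.26 in JB and 126.48, 81.96 and 100.83 in HS. Every IMF sample lay above every SCF sample. The IMF minus SCF difference was 2.22 ± 0.31, a 4.66-fold difference (adjusted p = 0.000895, limma), with 3.05 ± 0.44 within JB and 1.39 ± 0.44 within HS. HS SCF 5, which had the highest muscle fibre marker sum of the SCF samples (17333), had a TGFB3 signal of 81.96. HS IMF 2, which had the lowest muscle fibre sum of the IMF samples (50066), had the lowest TGFB3 signal in IMF, 138.9. HS IMF 3 had a fibre sum of 95124 and the next lowest TGFB3 signal in IMF, 186.69. The part of muscle fibres in the TGFB3 values was not tested.

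In IMF all 3 JB samples of TGFB3 were above all 3 HS samples, although JB IMF 2 and HS IMF 1 were nearly equal, and the breed difference was 1.32 ± 0.44. In the same IMF samples the smooth muscle and pericyte markers summed to 26028 to 51970 in JB and 12372 to 28020 in HS, and their part in the TGFB3 values was not tested. In SCF the TGFB3 breeds overlapped, with a difference of -0.33 ± 0.44 (adjusted p = 1.00, limma).

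TGFB1 was dim throughout. Its signal was 48.47, 78.84 and 61.32 in JB IMF and 58.47, 68.86 and 144.75 in HS IMF, and in SCF 52.43, 73.41 and 77.22 in JB and 75.3, 67.52 and 65.16 in HS. HS IMF 3 was highest, and the other 11 samples lay close together. The depot difference was 0.24 ± 0.28 (adjusted p = 0.631, limma).

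TGFB2 varied most within the HS groups. The signal was 555.23, 527.88 and 1025.99 in JB IMF and 311.34, 1194.94 and 100.39 in HS IMF. In SCF it was 231.58, 189.94 and 169.18 in JB and 978.61, 211 and 207.11 in HS. The JB depots did not overlap, with a difference of 1.74 ± 0.70, whereas the HS depots did, with 0.22 ± 0.70. Over both breeds the depot difference of TGFB2 was 0.98 ± 0.49 and did not pass (adjusted p = 0.226, limma). Without the arrays of lowest group correlation in each depot, HS IMF 3 and HS SCF 4, it was 1.67 with adjusted p = 0.0151.

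INHBA encodes the subunit whose dimer is activin A, and FST encodes follistatin, which binds and neutralizes activins. Both were higher in IMF than in SCF. INHBA had signals of 205.12, 105.87 and 1058.69 in JB IMF and 694.45, 2321.06 and 0.29 in HS IMF. In SCF its signals were 12.62, 18.72 and 9.29 in JB and 0.01, 18.13 and 11.19 in HS. Of the 6 IMF samples 5 were above every SCF sample, and HS IMF 3 was near the bottom of the scale. The depot difference of INHBA was 3.50 ± 0.96 (adjusted p = 0.0383, limma), an 11.3-fold difference on a scale that understates the change of signals below 16. It was 3.32 ± 1.36 within JB and 3.67 ± 1.36 within HS.

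The INHBA call held without HS IMF 3 (4.58, adjusted p = 0.000473) but was lost when any of 9 other samples was left out, namely JB IMF 1 or 3, any JB SCF sample, HS IMF 1 or any HS SCF sample (3.05 to 3.61, adjusted p = 0.0610 to 0.107). With 1 added to each signal in place of 16 the difference was 4.43 with adjusted p = 0.0723. The breeds overlapped in both depots, with JB minus HS differences of -0.10 ± 1.36 in IMF and 0.25 ± 1.36 in SCF. With 1 sample left out the IMF value ran from -2.17 without HS IMF 3 to 1.39 without HS IMF 2, and it was also positive without JB IMF 1 (0.14), JB IMF 2 (0.53) or HS IMF 1 (0.47). In SCF it was -0.036 without HS SCF 4.

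FST had signals of 448.53, 540.56 and 302.98 in JB IMF and 370.38, 1544.89 and 189.86 in HS IMF, against 202.13, 151.45 and 144.01 in JB SCF and 364.59, 182.98 and 124.64 in HS SCF. The depots did not overlap in JB and overlapped in HS. The IMF minus SCF difference was 1.40 ± 0.39, a 2.64-fold difference (adjusted p = 0.0407, limma). It was 1.23 to 1.52 with adjusted p = 0.0631 to 0.103 without any single JB sample, HS SCF 5 or HS SCF 6, so the call was lost in each of these 8 cases. Between breeds FST differed by -0.57 ± 0.55 in IMF and -0.38 ± 0.55 in SCF, and these values turned to 0.16 without HS IMF 2 and 0.058 without HS SCF 4. HS IMF 2 had the highest signal of the 12 samples for INHBA, TGFB2 and FST.

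Of the bone morphogenetic protein genes BMP2 was lower in IMF than in SCF. Its signal was 115.36, 78.8 and 98.87 in JB IMF and 113.21, 91.66 and 19.55 in HS IMF, against 232.75, 182.58 and 139.07 in JB SCF and 176.2, 474.03 and 204.29 in HS SCF. The 6 IMF samples all lay below the 6 SCF samples. The difference was -1.21 ± 0.31 (adjusted p = 0.0299, limma), with -0.72 ± 0.44 within JB and -1.70 ± 0.44 within HS. Leaving out any single JB sample or HS SCF 5 gave -1.02 to -1.28 with adjusted p = 0.0503 to 0.0727.

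BMP4 was dim, with signals of 87.73, 80.14 and 65.47 in JB IMF and 22.72, 106.85 and 59.48 in HS IMF. In SCF it had 79.92, 67.86 and 18.15 in JB and 73.59, 33.21 and 42.09 in HS. All 4 groups overlapped, and neither the depot difference of 0.45 ± 0.34 (adjusted p = 0.421) nor the breed difference in SCF passed in limma.

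**Figure D2:**
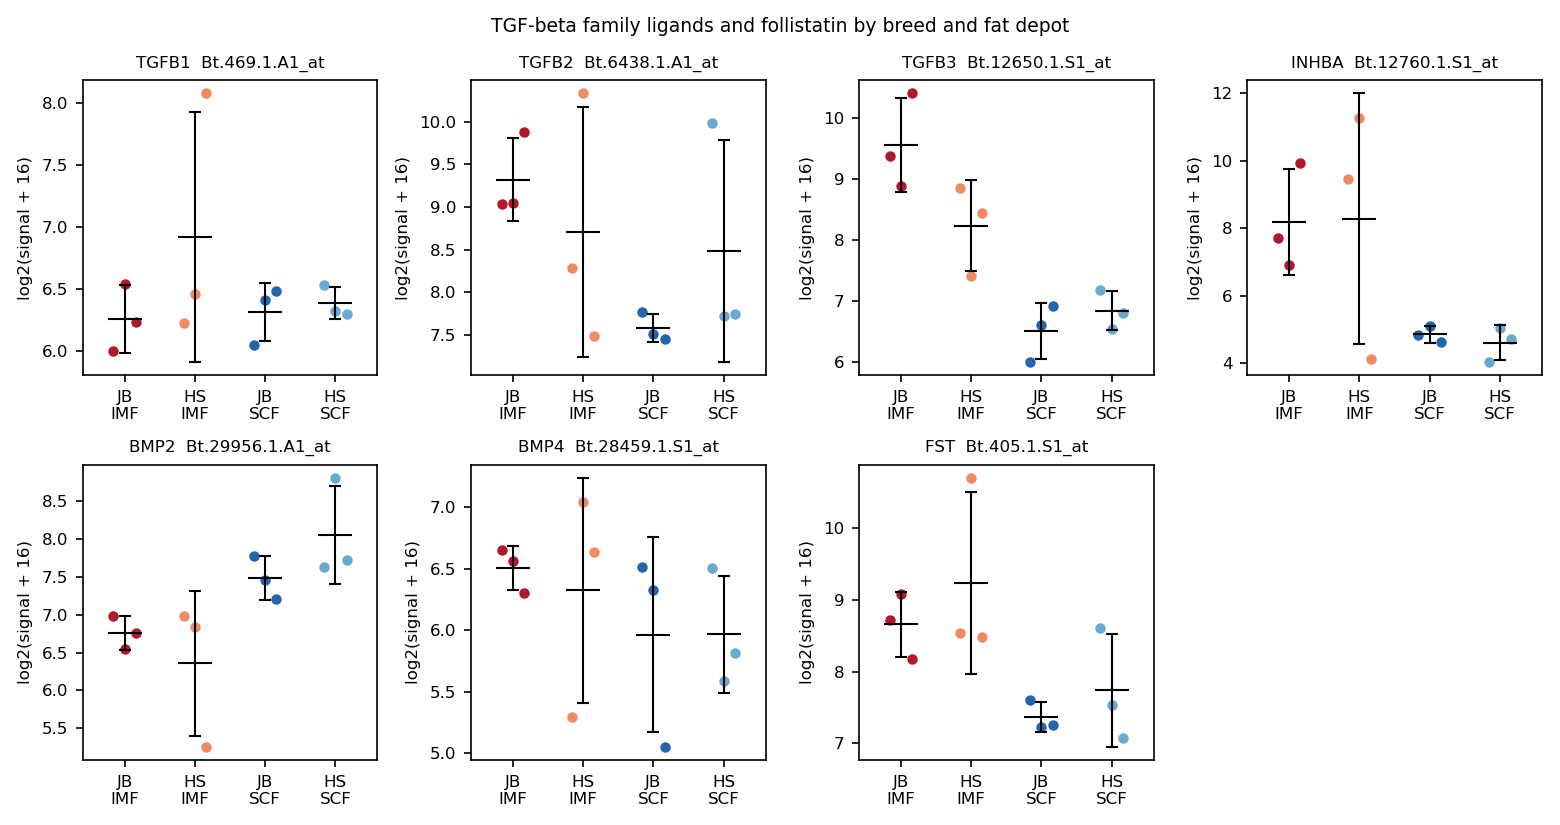
Signal of the ligand genes and FST in the 12 samples. The vertical axes are log2(signal + 16) after quantile normalization, points are samples, and bars give the group mean and SD of 3 samples. TGFB3 is higher in all IMF samples than in all SCF samples, BMP2 is lower, and INHBA is low in HS IMF 3 and in all SCF samples.

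THBS1 encodes thrombospondin 1, a secreted glycoprotein that can activate latent TGF-beta. Its 6 probe sets did not agree on the depot difference. On Bt.23493.1.S1_at the signal was 1838.51, 1352.24 and 979.6 in JB IMF and 1900.86, 1939.23 and 708.59 in HS IMF, against 849.89, 691.87 and 521.64 in JB SCF and 200.42, 576.34 and 336.98 in HS SCF. Within each breed every IMF sample was above every SCF sample. The difference was 1.65 ± 0.26, a 3.13-fold difference (adjusted p = 0.00190, limma), with 1.01 ± 0.37 within JB and 2.28 ± 0.37 within HS.

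A second THBS1 probe set, Bt.5301.1.S1_at, also passed between depots. It had 13076.6, 7311.5 and 7905.52 in JB IMF and 6783.8, 11206 and 3222.81 in HS IMF, against 8159.49, 4262.16 and 2880.96 in JB SCF and 4000.83, 2296.4 and 1941.63 in HS SCF. The depots overlapped in both breeds. The difference was 1.26 ± 0.34, a 2.40-fold difference (adjusted p = 0.0355, limma). It was 1.06 to 1.33 with adjusted p = 0.0508 to 0.0968 without JB IMF 1 or 3, JB SCF 5 or 6, HS IMF 1 or 2, or HS SCF 5 or 6.

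The other 4 THBS1 probe sets did not pass. Bt.5301.2.S1_a_at differed by 1.54 ± 0.56 between depots (adjusted p = 0.103) and Bt.5301.2.A1_at by 0.50 ± 0.20 (adjusted p = 0.123, limma). Bt.8563.1.S1_at had the opposite sign, -0.60 ± 0.21 (adjusted p = 0.0916, limma). Its signals were 108.21 to 174.51 in JB IMF and 47.6 to 149.4 in HS IMF, against 187.67 to 214.79 in JB SCF and 174.81 to 249.84 in HS SCF, so all deposited IMF signals were below all SCF signals, with 174.51 and 174.81 nearest to each other. After normalization they overlapped. Bt.8563.1.S2_at differed by -0.36 ± 0.18 (adjusted p = 0.231, limma). Which of these probe sets measures THBS1 best could not be settled from the files.

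Between breeds the THBS1 probe sets also split. In IMF the JB minus HS difference was -1.31 ± 0.28 on Bt.5301.2.A1_at, where the signals were 75.9 to 96.06 in JB IMF and 133.19 to 252.98 in HS IMF and did not overlap. It was between -0.42 and 0.71 on the other 5, and that of Bt.5301.1.S1_at turned from 0.28 to -0.15 without HS IMF 3. Bt.8563.1.S2_at had 814.37 to 1085.15 in JB IMF and 314.93 to 791.02 in HS IMF. These deposited signals did not overlap, but after normalization the breeds did, and the difference was 0.24 against 0.65 on the values as deposited. In SCF Bt.23493.1.S1_at differed by 0.86 ± 0.37 (95% interval 0.06 to 1.65, unadjusted p = 0.0369, adjusted p = 1.00 in limma), and its breeds overlapped. The values of Bt.5301.2.S1_a_at were the most scattered, with 1376.83, 353.5 and 705.82 in JB IMF and 173.59, 1508.2 and 124.17 in HS IMF.

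**Figure D3:**
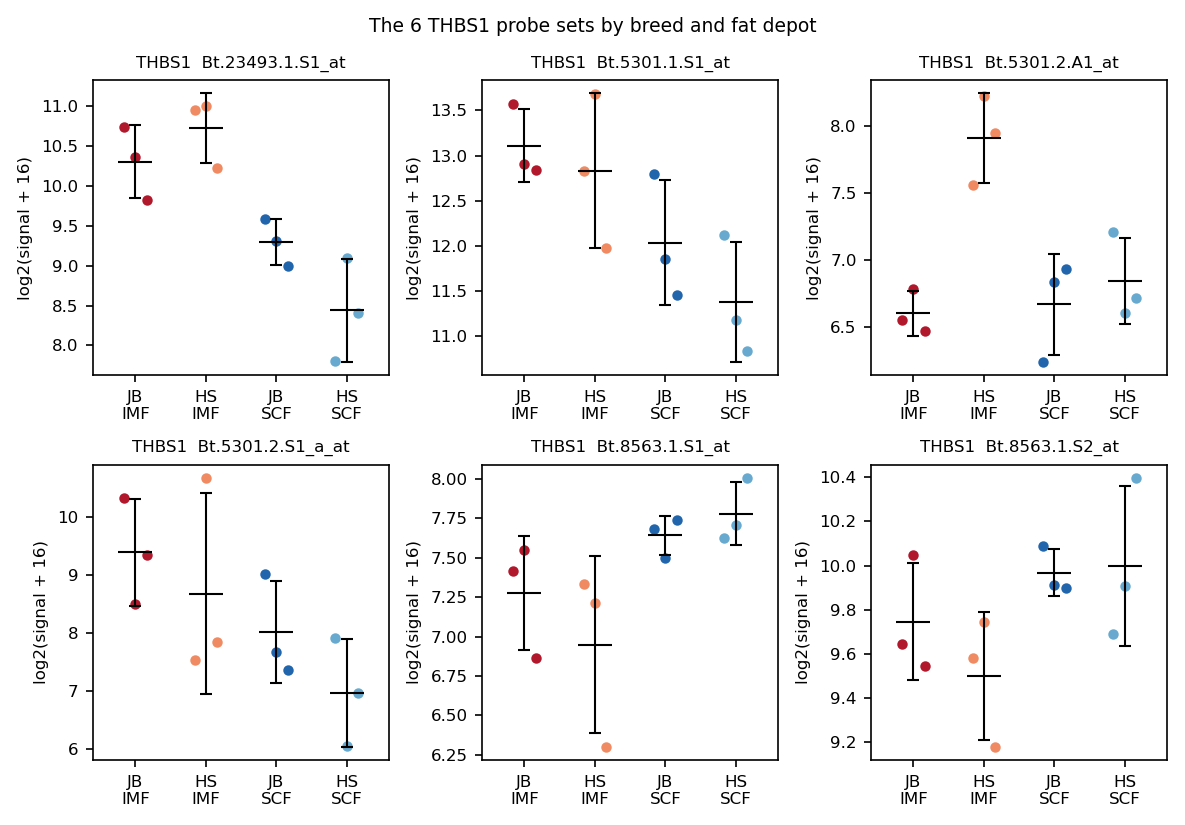
Signal of the THBS1 probe sets in the 12 samples. The vertical axes are log2(signal + 16) after quantile normalization, points are samples, and bars give the group mean and SD of 3 samples. Bt.23493.1.S1_at and Bt.5301.1.S1_at are higher in IMF than in SCF, and Bt.8563.1.S1_at, with a difference of -0.60, did not pass and overlaps between the depots on this scale.

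Between depots 6 of the 15 member probe sets passed in limma, standing for 5 genes. TGFB3, INHBA, FST and the THBS1 probe sets Bt.23493.1.S1_at and Bt.5301.1.S1_at were higher in IMF, and BMP2 was lower. Over all probe sets tested 11% passed, 4.66% higher and 6.33% lower in IMF. The median difference of the 15 was 0.65, against -0.06 over all probe sets tested. The IMF and SCF samples did not overlap on 3 of the 15, TGFB3, BMP2 and Bt.8563.1.S1_at of THBS1, against 5.97% of all probe sets. On normalized values the 3 were TGFB3, BMP2 and Bt.23493.1.S1_at of THBS1. Within JB the depots were apart on 8 of the 15 (31.1% of all probe sets) and within HS on 6 (20.4%), and on normalized values on 9 and 5. The THBS1 probe sets stand for 1 gene and are not separate evidence. The count of 6 fell to 2, TGFB3 and Bt.23493.1.S1_at of THBS1, without HS SCF 5 and JB SCF 6 together, or without JB IMF 1, JB IMF 3, JB SCF 5, JB SCF 6 or HS SCF 5 alone. Without HS SCF 5 and JB SCF 6 the lost differences were 3.54 for INHBA, -1.09 for BMP2, 1.32 for FST and 1.07 for Bt.5301.1.S1_at. Over all samples they were 3.50, -1.21, 1.40 and 1.26. HS SCF 5 and JB SCF 6 had the highest muscle fibre sums of the SCF samples. The IMF samples kept sums of 50066 to 108553, and the part of muscle fibres in these differences was not tested.

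Between breeds in SCF 0 of the 15 passed in limma, 2 had an unadjusted p below 0.05 (Bt.5011.1.S1_at of LTBP2 and Bt.23493.1.S1_at of THBS1), and 2 had groups that did not overlap, both of LTBP2, against 12.2% of all probe sets. The median difference of the 15 was -0.03, against 0.00 over all. In IMF, the contrast from which LTBP2 was chosen, 5 of the 15 had breeds that did not overlap (4 on normalized values), against 16.8% of all probe sets, and nothing is read from this share. The median there was 0.28, against 0.10 over all.

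**Figure D4:**
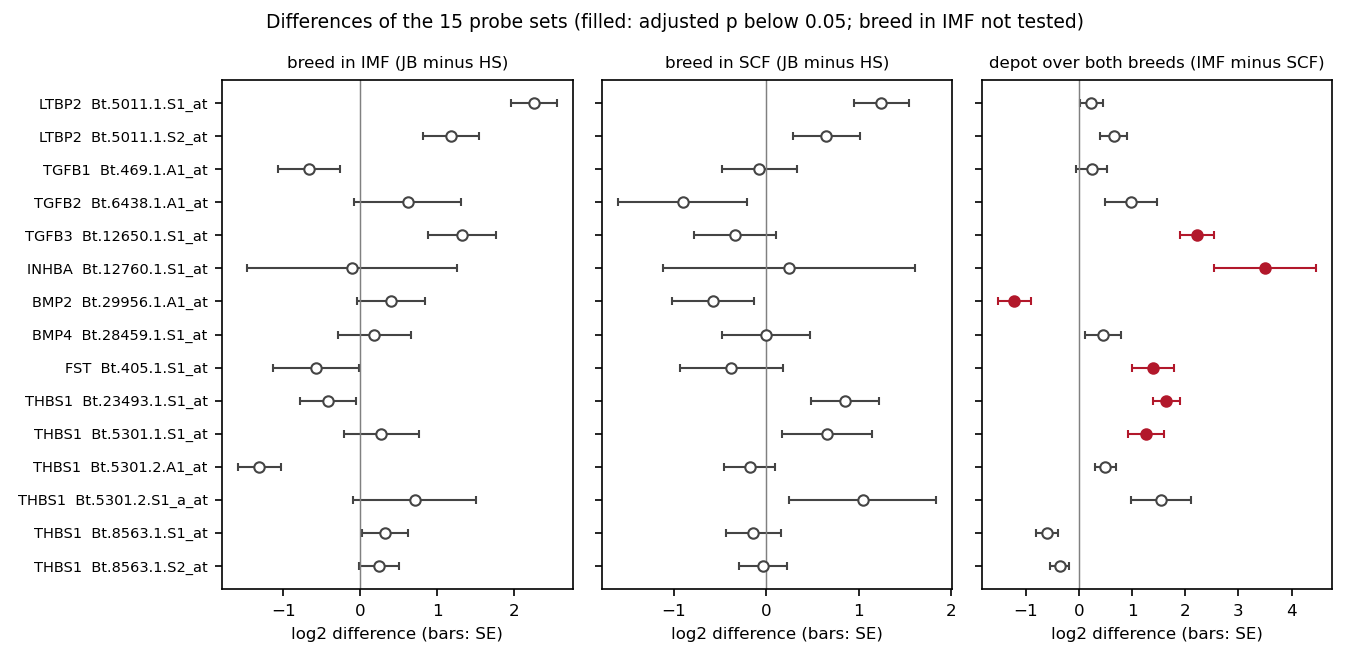
Log2 differences of the member probe sets between breeds in IMF, between breeds in SCF and between depots. The horizontal axes are log2 differences and the bars are SE from the fit to 12 samples, with filled points for an adjusted p below 0.05 (breed in IMF was not tested). LTBP2 has 2.25 and 1.18 in IMF between breeds, and INHBA has 3.50 between depots.

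The pathway around these genes was followed in 7 lists holding 128 other genes. Of these, 69 were measured, which here means that a probe set passed the dim filter. Each entered through its brightest probe set. The marker lists above had no such filter. Between depots 10 of the 69 rose and 5 fell in IMF relative to SCF, against 4.79% higher and 7.91% lower of all named genes. The median over the 69 was 0.06, against -0.12 over all named genes. Calls in both directions occurred in the microfibril, activator and response lists.

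Among the other ligands 1 of 6 rose, GDF7, a relative of the bone morphogenetic proteins, by 0.94 ± 0.23 (adjusted p = 0.0220, limma). All its deposited IMF signals were above all SCF signals, with 143.15 and 142.96 nearest to each other. None of the 8 receptors and co-receptors passed. BMPR2, a type II receptor for bone morphogenetic proteins, had the smallest p, with 0.98 ± 0.30 (adjusted p = 0.0529). Of the 7 SMADs and intracellular regulators PMEPA1, a TGF-beta target that restrains SMAD signalling, rose by 1.62 ± 0.42 (adjusted p = 0.0307, limma).

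Among the 6 secreted antagonists and binding proteins ASPN and FMOD rose. ASPN, asporin, is a small leucine-rich proteoglycan that binds TGF-beta, and had 32.58 to 505.74 in IMF and 15.38 to 43.56 in SCF, a difference of 2.02 ± 0.30 (adjusted p = 0.00130, limma). FMOD, fibromodulin, a collagen-binding proteoglycan of the same family, differed by 1.495 ± 0.404 (adjusted p = 0.0349, limma).

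The list nearest to LTBP2 holds microfibril and latent complex proteins, of which 13 were measured. ELN, elastin, rose by 0.81 ± 0.18 (adjusted p = 0.0149). The microfibril proteins MFAP2 and MFAP5 and the crosslinking enzyme LOX fell, by 0.90, 1.17 and 1.20 on the log2 scale (adjusted p = 0.0335, 0.0336 and 0.0427, limma). MFAP5 had 1040.25 to 4063.23 in IMF and 4087.02 to 11273.88 in SCF, with no overlap. LTBP1, which does bind the latent complex, differed by 0.98 ± 0.68 between breeds in IMF, 0.04 ± 0.68 between breeds in SCF and 0.43 ± 0.48 between depots, and passed in none.

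Of the 10 measured genes in the list drawn up for activation of latent TGF-beta, which includes the THBS1 relative THBS2, 1 rose and 1 fell. TGM2, transglutaminase 2, which crosslinks matrix proteins, differed by 2.81 ± 0.47 (adjusted p = 0.00295), and PLAU, the protease urokinase, fell by 1.30 on the log2 scale (adjusted p = 0.0392, limma).

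Among the 19 measured response genes 4 rose and 1 fell. TNC, the matrix glycoprotein tenascin C, had 428.91 to 6362.26 in IMF and 51.5 to 220.64 in SCF, a difference of 4.75 ± 0.48 (adjusted p = 5.81e-05, limma). The smooth muscle genes ACTA2 and TAGLN differed by 2.91 ± 0.29 and 2.92 ± 0.32 (adjusted p = 5.11e-05 and 0.000103), and their IMF samples also lay above all SCF samples. CCN2, connective tissue growth factor, differed by 1.097 ± 0.270 (adjusted p = 0.0236), and TGFBI, a matrix protein gene named for its induction by TGF-beta, fell by 1.20 on the log2 scale (adjusted p = 0.0421, limma). ACTA2 and TAGLN are themselves genes of smooth muscle. The sum of that marker list was higher in every IMF sample than in every SCF sample. In HS IMF 3, which had the lowest IMF sum (12372), DES of this list alone gave 5262.04, against 72.11 to 511.26 in SCF. Without DES this sample would not lie above all SCF samples. MCAM of the same list ran the other way, with 3043.8 to 4531.74 in IMF and 3538.95 to 8186.66 in SCF. So did PDGFRB, with 84.01 to 416.7 in IMF and 329.45 to 666.95 in SCF. RGS5, LMOD1 and CSPG4 overlapped between the depots, and MYH11, SMTN, CNN1 and DES were higher in every IMF sample than in every SCF sample. The part of smooth muscle in the ACTA2 and TAGLN values was not tested. A second probe set of TNC, Bt.5244.1.A1_at, differed by -0.14 ± 0.17 (adjusted p = 0.644) and did not share the change, and those of ELN and GDF7 had 0.52 (adjusted p = 0.317) and 0.76 (adjusted p = 0.0697, limma).

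**Figure D5:**
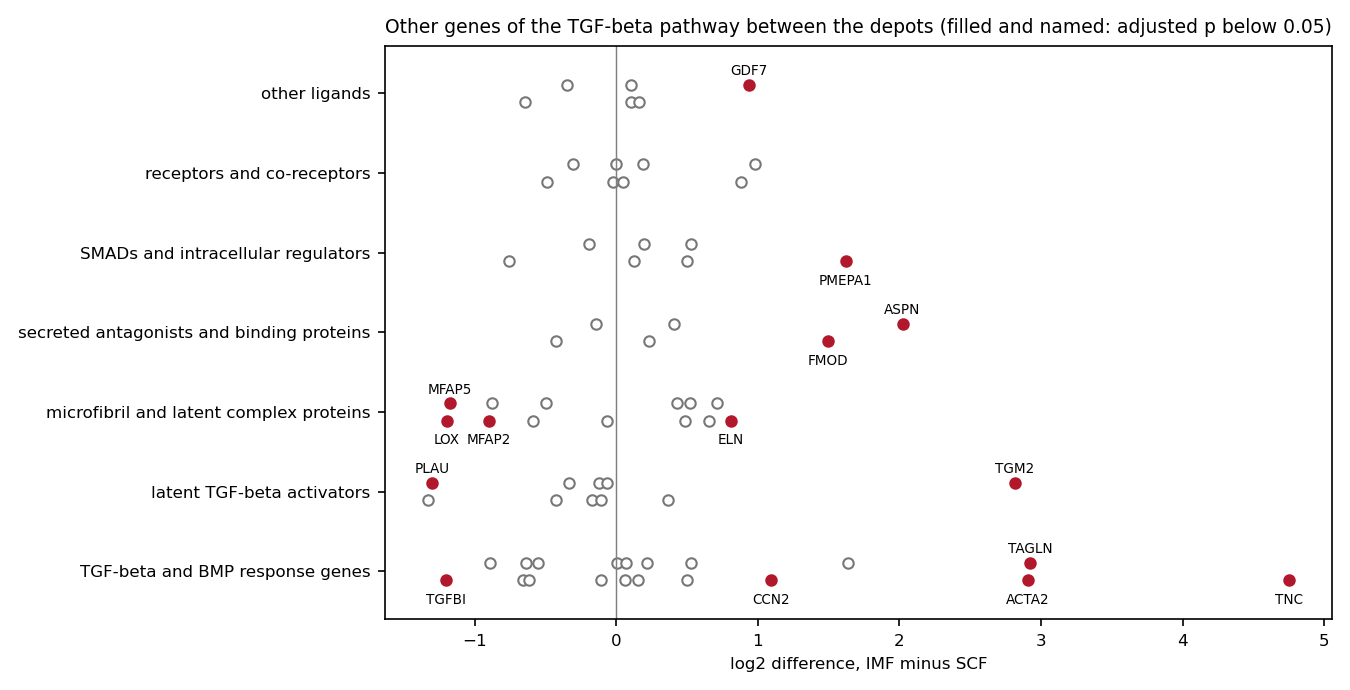
Differences between depots of the 69 measured pathway genes, in 7 lists. The horizontal axis is the log2 difference, IMF minus SCF, points are genes, and filled and named points passed at an adjusted p below 0.05. TNC lies farthest right at 4.75, and 10 genes are higher and 5 lower.

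Between breeds 0 of the 69 pathway genes passed in limma in either depot, with 9 at an unadjusted p below 0.05 in IMF and 6 in SCF. Of all named genes 0.0256% passed in IMF and 0.0128% in SCF. The medians of the 69 were 0.13 in IMF, against 0.11 over all named genes, and 0.17 in SCF, against 0.03. The smallest p of each list in IMF belonged to GDF7 (JB minus HS -0.93), BMPR1A (0.81), TGIF1 (-1.13), ASPN (1.78), FBLN1 (0.62), ITGB1 (0.44) and COL1A1 (-1.76), with adjusted p of 0.485 to 0.556 in limma. In SCF it belonged to BMP7 (-0.37), ACVR2B (-0.64), SMAD3 (-0.50), FMOD (1.07), MFAP2 (0.61), PLAU (0.77) and TIMP1 (1.38), each with adjusted p = 1.00 in limma.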

How the data were processed

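Total RNA from 12 fat samples was labelled with biotin and hybridized to the Affymetrix bovine array, per the labels' protocols. The deposited values are linear signal intensities, and the authors used GCOS 1.1.1 and Affymetrix Expression Console 1.1, per the submitters' processing notes. How probes were summarized and normalized is not given in the sources used here, and no detection calls were used.

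From these values log2(signal + 16) was computed and quantile normalized over the 12 arrays. The 112 control probe sets and the dimmest 30% of the other 24016 were left out. Linear models with 4 group means were fitted with limma 3.58.1 in R 4.3.3 (8 residual and 4.05 prior degrees of freedom), adjusted by Benjamini-Hochberg over 16811 probe sets, and tested on simulated data. Gene symbols were updated through Entrez identifiers. Pathway genes entered through the brightest probe set. Figures used Python 3.11.15 and matplotlib 3.10.9.

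The members and gene lists were chosen with earlier results of these data known. All member probe sets are named, and up to 4 pathway genes per list and comparison with the smallest p among those that passed, or else 1. TGFBI, which this rule leaves out, was added after its values were seen so that all calls are named. The 6 probe sets most like LTBP2 and the 3 most opposite were ranked by correlation. Alternatives were other pseudocounts, filters, normalizations, variance models, probe sets, samples and a replicate block. The main fit did not pair samples by replicate number.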

Additional observations from a re-analysis of the deposited data

How the results depend on the processing

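Recomputing 65 results under 25 settings gave 1423 values, of which 1238 kept their direction and were classed as unchanged. For tested differences, unchanged means the same side of the threshold. For counts it means equal or within a set ratio. For the untested breed differences in IMF, it means a shift smaller than the mean SD of the IMF groups. The difference of LTBP2 between breeds in IMF stayed between 1.89 and 2.56 on Bt.5011.1.S1_at and between 0.86 and 1.47 on Bt.5011.1.S2_at. In SCF the adjusted p of Bt.5011.1.S1_at was 0.0616 to 1.00 over 23 settings, and the counts of members and pathway genes called between breeds stayed at 0. TGFB3 and Bt.23493.1.S1_at of THBS1 passed between depots in all 21 settings. INHBA passed in 9 of 20, BMP2 in 13, FST in 10 and Bt.5301.1.S1_at of THBS1 in 11 of 21. Of the 15 pathway genes, ACTA2, TAGLN, TGM2, TNC and ASPN passed in every setting run, LOX in 7, PMEPA1 in 9, FMOD and TGFBI in 10 and MFAP2, MFAP5 and PLAU in 12.

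The count of 6 members called between depots was 4 on the values as deposited, 9 with array weights and 2 without HS SCF 5 and JB SCF 6. It was 2 to 7 with 1 sample left out, and 2 without JB IMF 1, JB IMF 3, JB SCF 5, JB SCF 6 or HS SCF 5. The 15 pathway genes became 26 with array weights, 8 without HS SCF 5 and JB SCF 6, and 6 to 16 with 1 sample left out. The settings without HS IMF 3 and HS SCF 4 gave 8 members. The cause of these changes was not tested. Array weights also brought TGFB2 (1.41, adjusted p = 0.0179), Bt.5301.2.S1_a_at of THBS1 (2.30, adjusted p = 0.0122) and Bt.5011.1.S2_at of LTBP2 (0.75, adjusted p = 0.0423) past the threshold between depots.

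Differences that changed sign were ones that had not passed or were not tested. In IMF between breeds, not tested, the sign turned for INHBA (0.76 with a pseudocount of 1, 0.033 as deposited, -2.17 to 1.39 with 1 sample left out), BMP2 (-0.16 without HS IMF 3, alone or with HS SCF 4), BMP4 (-0.33 without HS IMF 1), FST (0.16 without HS IMF 2) and Bt.5301.1.S1_at of THBS1 (-0.15 without HS IMF 3, alone or with HS SCF 4). In SCF between breeds BMP4 was 0.034 as deposited, 0.30 with array weights, 0.27 without HS IMF 3 and HS SCF 4, 0.26 without HS SCF 5 and JB SCF 6, and -0.28 to 0.45 with 1 sample left out. Bt.8563.1.S2_at of THBS1 was 0.063 as deposited, 0.020 after median centring and -0.18 to 0.17. With array weights and without HS IMF 3 and HS SCF 4, TGFB1 was 0.0056 and 0.0027 (-0.15 to 0.060 with 1 sample left out), and Bt.5301.2.A1_at of THBS1 was 0.016 and 0.010 (-0.31 to 0.039). Without those samples INHBA was -0.036 (-0.036 to 0.47) and FST 0.059 (-0.70 to 0.058). Between depots TGFB1 was -0.016 and -0.012 under the same settings (-0.050 to 0.41).

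With the replicate block, LTBP2 between breeds in SCF kept 1.24 on Bt.5011.1.S1_at with adjusted p = 1.00, and 0 members passed. Same-numbered JB and HS samples had deviations from their group means that correlated between -0.278 and 0.117. With 3 samples a group, these values cannot show whether same-numbered samples share a batch. No paired analysis was made between depots, because no number is shared and the labels do not link IMF samples to SCF samples by animal. The filter of 50% left out TGFB1, INHBA and BMP4, which have no value there. With 3 arrays a group and no detection calls, small differences of dim probe sets cannot be resolved.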
